A study of Mus musculus with 16 samples.

Results

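Fgf21 and Gdf15 encode 2 stress hormones, and Klb and Fgfr1 are receptor genes of the first of them. They are 4 of the 20295 genes counted in this experiment on cultured mouse brown adipocytes. Fgf21 was chosen by its own values, because its level was higher with SR-3420 and with each of 2 inhibitors given alone. Gdf15 was selected as the companion hormone, and Klb and Fgfr1 as the genes of the FGF21 receptor. The Fgf21 differences that made the choice are therefore given as a description, with no test. The cells were preadipocytes of mouse brown fat, a single line immortalized with SV40 large T antigen, and were used as differentiated adipocytes on day 7, with a wild-type genotype in all groups. SR-3420 is a ligand of ABHD5 that switches on ATGL-driven lipolysis without a receptor signal. The inhibitors act at successive steps of fat use: triacsin C (TC, spelled Triascin C in the labels) stops cells from joining fatty acids to coenzyme A, and etomoxir (ETO) stops the resulting acyl groups from entering mitochondria to be burned. The question was which of these steps the response of transcription to lipolysis needs. RNA-seq was done in 6 groups.

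The vehicle group had 2 samples and received DMSO, with neither inhibitor nor SR-3420. The SR-3420 group had 2 samples that received 10 µM SR-3420 for 3 h. The TC group (3 samples) received 5 µM triacsin C and the ETO group (3 samples) 50 µM etomoxir, with no SR-3420. The TC+SR-3420 and ETO+SR-3420 groups, of 3 samples each, were pretreated with the same inhibitor for 1 h and then stimulated with 10 µM SR-3420 for 3 h. The labels give this SR-3420 dose, while the text of the study names a higher one, so the dose is uncertain. Vehicle replicate 1 and SR-3420 replicate 2 were not analysed here. The 16 samples held between 9452861 and 25670624 counts, with a median of 13602886.

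FGF21 is a hormone best known from the fasting liver, and brown adipocytes also secrete it when they are activated or stressed. It signals through an ordinary FGF receptor, mainly FGFR1 in fat, but only where the co-receptor beta-klotho, the product of Klb, is present. GDF15 is a distant member of the TGF-beta family that many cells release under mitochondrial or endoplasmic reticulum stress, and its receptor GFRAL, which signals with RET, is found mainly in the hindbrain. The transcription factors ATF4 and CHOP of the integrated stress response are known regulators of both hormone genes, and PPAR alpha is known to act on Fgf21.

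In the mm9 coordinates of the count table, Fgf21 lies on chromosome 7 from 52869260 to 52870860 and Gdf15 on chromosome 8 from 73153293 to 73155534, both on the minus strand. Klb lies on chromosome 5 from 65739650 to 65775242 and Fgfr1 on chromosome 8 from 26629231 to 26686190, both on the plus strand. The GENCODE annotation of this build gives Fgf21 3 exons and Klb 5 exons, and it gives Fgfr1 models of 17 and 18 exons. Its Gdf15 models of 2 and 3 exons begin upstream of the start used for counting, at 73155994 and 73156355, so reads from the first exon may be missing from the Gdf15 count. No other gene of the annotation overlapped Fgf21, Gdf15 or Klb, and 1 on the opposite strand overlapped Fgfr1, which matters because the counting is not stated to use strand.

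The promoters of the hormones are shown because both transcripts rose after SR-3420 in the presence of each inhibitor and because ATF4 has a known recognition element. RefSeq promoters (GRCm38.p6, 250 bases before to 50 after the start) were found for Fgf21 (1), Gdf15 (2) and Klb (1), and Fgfr1 was not matched. Capitals mark letters that matched a searched motif on either strand.
Fgf21, chr7:45615441-45615740, minus strand: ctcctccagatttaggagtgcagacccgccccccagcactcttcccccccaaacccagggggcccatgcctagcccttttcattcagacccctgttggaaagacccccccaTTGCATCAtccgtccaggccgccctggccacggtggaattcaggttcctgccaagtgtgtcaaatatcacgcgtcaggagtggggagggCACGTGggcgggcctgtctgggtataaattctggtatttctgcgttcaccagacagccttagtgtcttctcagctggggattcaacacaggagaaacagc
Gdf15, upstream start, chr8:70632407-70632706, minus strand: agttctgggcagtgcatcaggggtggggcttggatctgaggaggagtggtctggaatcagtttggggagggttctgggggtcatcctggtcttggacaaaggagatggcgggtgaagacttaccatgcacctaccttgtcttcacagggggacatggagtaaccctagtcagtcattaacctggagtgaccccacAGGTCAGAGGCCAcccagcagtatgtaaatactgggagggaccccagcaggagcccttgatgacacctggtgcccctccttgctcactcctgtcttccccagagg
Gdf15, downstream start, chr8:70632046-70632345, minus strand: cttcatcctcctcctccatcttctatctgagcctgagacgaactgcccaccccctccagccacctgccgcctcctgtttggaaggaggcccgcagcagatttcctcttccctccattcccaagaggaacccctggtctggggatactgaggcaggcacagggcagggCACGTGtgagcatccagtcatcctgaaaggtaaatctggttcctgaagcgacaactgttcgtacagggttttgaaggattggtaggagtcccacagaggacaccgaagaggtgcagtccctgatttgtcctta
The Fgf21 promoter held TTGCATCA, a reverse-strand match to the ATF4-type element TGATGNAA, from -139 to -132 relative to the start. That element is present in 3.97% of the 32851 promoters of this length. An E-box (CACGTG) stood at -50 to -45 of Fgf21 and at -83 to -78 of the downstream Gdf15 start, against 7.15% of all promoters. A direct repeat of AGGNCA spaced by 1 base, the arrangement that PPAR and RXR pairs are known to bind, was found at -55 to -43 of the upstream Gdf15 start and in 0.381% of all promoters. The cAMP response element TGACGTCA, held by 1.79% of all promoters, matched none of these 4 windows, and the Klb window matched none of the 4 motifs. The printed motifs did not overlap each other. A match describes the letters in the window and is not a measured binding site.

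Fgf21 was scarce in resting cells. In CPM, the number of counts per 1000000 counts of a sample after TMM scaling, its level was 0.877 and 0.553 in the vehicle samples, which rest on 12 and 6 counts. With SR-3420 alone the levels were 9.90 and 9.21 CPM. With TC alone they were 2.58, 2.80 and 3.26 CPM, and with ETO alone 3.23, 3.47 and 3.15 CPM. Every sample that received an inhibitor alone thus lay above both vehicle samples and below every sample that received SR-3420. With both TC and SR-3420 the levels were 11.8, 14.1 and 12.2 CPM, and with both ETO and SR-3420 9.84, 10.0 and 10.4 CPM. By group mean the order of the levels was vehicle (0.715 ± 0.229 CPM, SD, n = 2), TC (2.88 ± 0.347, n = 3), ETO (3.28 ± 0.170, n = 3), SR-3420 (9.55 ± 0.494, n = 2), ETO+SR-3420 (10.1 ± 0.301, n = 3) and TC+SR-3420 (12.7 ± 1.23, n = 3). In that order TC and ETO overlapped, as did SR-3420 and ETO+SR-3420, while the ranges of the other neighbours did not overlap. Among the 12786 genes that passed the filter on low counts, the level of Fgf21 per length stood at percentile 12.2 in vehicle and at percentile 55.8 in TC+SR-3420.

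**Figure D1:**
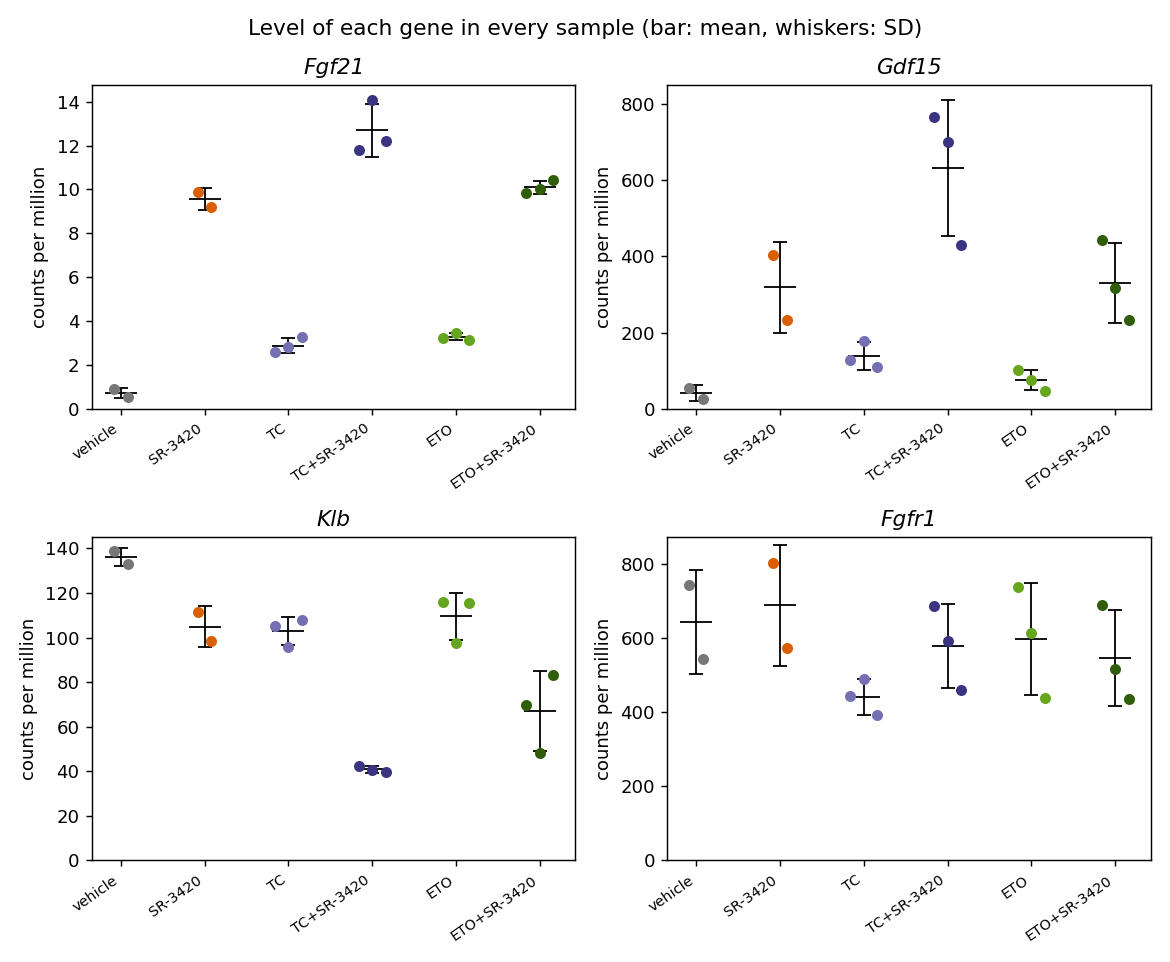
Level of Fgf21, Gdf15, Klb and Fgfr1 in CPM (vertical axes) in each of the 6 groups (horizontal axes), with a point per sample, a bar at the group mean and whiskers of 1 SD. Fgf21 and Gdf15 are highest in TC+SR-3420 (means 12.7 and 633 CPM), where Klb is lowest (40.8 CPM), and the Fgfr1 samples of most groups overlap.

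As a description with no test, the fitted Fgf21 difference from vehicle was 3.70 on the log2 scale for SR-3420, 1.98 for TC and 2.16 for ETO. Those comparisons share the vehicle samples, so the low vehicle counts enter all of them. The log2 response to SR-3420 was 1.57 smaller with TC than without, written as a difference of -1.57, and the corresponding difference with ETO was -2.08. These also belong to the values that chose the gene and were not tested.

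The comparisons that the choice did not use, although they draw on some of the same samples, were tested with edgeR's quasi-likelihood method, with p-values adjusted over all 12786 genes and a call at an adjusted p under 0.05. On top of TC, SR-3420 raised Fgf21 by 2.13 ± 0.17 on the log2 scale (SE), or 4.38-fold, with an adjusted p of 2.52e-06. On top of ETO, it raised Fgf21 by 1.62 ± 0.16, or 3.07-fold, with an adjusted p of 2.3e-05. All 3 stimulated samples lay above all 3 inhibitor samples in both comparisons. Set against SR-3420 alone, the log2 difference of TC+SR-3420 was 0.41 ± 0.17, with an adjusted p of 0.211, and was not called. All 3 TC+SR-3420 samples lay above both SR-3420 samples. For this and the separations of groups given below, the share of all genes that separate in this way was not counted. The log2 difference of ETO+SR-3420 from SR-3420 was 0.08, with a 95% interval from -0.29 to 0.44 and an adjusted p of 0.811.

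Gdf15, the other hormone, was far more abundant than Fgf21. Per kilobase of counted length, its mean vehicle level was 37.6 CPM against 0.755 CPM for Fgf21. Gdf15 was thus well above Fgf21 before any treatment. Its levels were 55.7 and 25.7 CPM in vehicle and 404 and 234 CPM with SR-3420 alone. They were 129, 179 and 108 CPM with TC alone and 102, 76.3 and 47.6 CPM with ETO alone. With TC and SR-3420 they reached 766, 701 and 430 CPM, and with ETO and SR-3420 they were 442, 317 and 233 CPM. The highest level without SR-3420 was 179 CPM and the lowest with it 233 CPM, so the 8 samples without SR-3420 and the 8 with it did not overlap. The mean levels ran from vehicle (40.7 ± 21.2 CPM, SD, n = 2) through ETO (75.3 ± 27.2, n = 3), TC (139 ± 36.4, n = 3), SR-3420 (319 ± 120, n = 2) and ETO+SR-3420 (331 ± 105, n = 3) to TC+SR-3420 (633 ± 178, n = 3). Neighbours overlapped between vehicle and ETO, between SR-3420 and ETO+SR-3420, and between ETO+SR-3420 and TC+SR-3420.

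SR-3420 alone raised Gdf15 by 2.97 ± 0.48 on the log2 scale (7.82-fold, adjusted p 0.00252). This value rests on few samples: without vehicle replicate 2 it was 3.63, and in a fit of these 4 samples alone the adjusted p was 0.0561. SR-3420 also raised Gdf15 on top of TC, by 2.19 ± 0.38 (4.56-fold, adjusted p 0.000654), and on top of ETO, by 2.13 ± 0.38 (4.39-fold, adjusted p 0.0014). TC alone raised Gdf15 by 1.77 ± 0.44 (3.40-fold, adjusted p 0.0183). That call was lost without vehicle replicate 3 (log2 difference 1.31, adjusted p 0.207) and without TC replicate 2 (1.54, adjusted p 0.0647), and without vehicle replicate 2 the difference was 2.43. The summed level of the 5 macrophage markers was also highest with TC, at 16.6, 18.4 and 17.2 CPM. It was between 4.33 and 10.3 CPM in the other 13 samples. Most of the TC sum was Cd68 (mean 15.5 CPM), which was called higher with TC (1.92 ± 0.27, adjusted p 0.000366). The mean of the defining marker Adgre1 was also highest with TC (0.165 CPM), with at most 3 counts in any sample. Csf1r and Lyz2 had their highest means in TC+SR-3420 (1.70 and 0.594 CPM, against 1.19 and 0.368 CPM with TC). The Ptprc mean was lowest with TC (0.142 CPM). The part of these markers in the Gdf15 result was not tested. For ETO alone the Gdf15 difference was 0.89 ± 0.43 with an adjusted p of 1, the samples overlapped with vehicle, and no call was made. This value was 1.55 without vehicle replicate 2 and 0.44 without vehicle replicate 3. The difference of TC+SR-3420 from SR-3420 was 0.99 ± 0.42, with an adjusted p of 0.216, and was not called, though all TC+SR-3420 samples lay above both SR-3420 samples. The difference of ETO+SR-3420 from SR-3420 was 0.05, with a 95% interval from -0.83 to 0.93.

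Whether the inhibitors changed the response of Gdf15 to SR-3420 was tested directly as a difference of log2 responses. With TC the response differed by -0.78 (95% interval -2.03 to 0.48, adjusted p 0.516) and with ETO by -0.83 (-2.09 to 0.42, adjusted p 0.988). Leaving out 1 sample moved the first between -1.44 and -0.33 and the second between -1.50 and -0.39, with the largest values without vehicle replicate 2 and the smallest without vehicle replicate 3 or SR-3420 replicate 1. Neither difference passed, and both intervals are wide enough to hold a response as large as that without inhibitor and a much smaller one.

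Klb, which encodes the co-receptor that makes a cell responsive to FGF21, moved the other way. Its levels were 139 and 133 CPM in vehicle, 111 and 98.5 CPM with SR-3420 alone, 105, 95.7 and 108 CPM with TC alone, and 116, 97.3 and 115 CPM with ETO alone. With TC and SR-3420 the levels were 42.4, 40.6 and 39.5 CPM, below all other samples. With ETO and SR-3420 they were 69.9, 48.1 and 83.4 CPM, between the TC+SR-3420 samples and the rest. The order of the means was TC+SR-3420 (40.8 ± 1.46 CPM, SD, n = 3), ETO+SR-3420 (67.1 ± 17.8, n = 3), TC (103 ± 6.41, n = 3), SR-3420 (105 ± 9.08, n = 2), ETO (110 ± 10.6, n = 3) and vehicle (136 ± 4.12, n = 2), and the TC, SR-3420 and ETO samples overlapped.

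In the presence of TC, SR-3420 lowered Klb by a log2 difference of -1.33 ± 0.17 (adjusted p 5.86e-05), to 0.397 of its level. In the presence of ETO the difference was -0.71 ± 0.16 (adjusted p 0.0067), and it was not called in a fit of those 6 samples alone (adjusted p 0.0906). Klb was also lower in TC+SR-3420 than in SR-3420 alone, by a log2 difference of -1.36 ± 0.18 (adjusted p 0.00175). Against vehicle, the log2 differences were -0.37 ± 0.20 for SR-3420 (adjusted p 0.299), -0.40 ± 0.18 for TC (0.189) and -0.31 ± 0.18 for ETO (1), and all treated samples lay below both vehicle samples in each. None of these differences from vehicle was called. They share the same vehicle samples, and the share of all genes that separate in this way was not counted. ETO+SR-3420 against SR-3420 gave -0.64 ± 0.18 with an adjusted p of 0.289 and no call, though all ETO+SR-3420 samples lay below both SR-3420 samples. The test of the difference in response gave -0.96 for TC (95% interval -1.52 to -0.40, adjusted p 0.0708) and -0.33 for ETO (-0.88 to 0.22, adjusted p 0.988). The TC value missed the threshold here and passed it in DESeq2 (adjusted p 0.0263) and in a fit of the 4 compared groups alone (0.0264).

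The adipocyte markers were low in the same groups as Klb. The summed level of the 7 markers (Adipoq, Fabp4, Plin1, Pparg, Lipe, Pnpla2 and Cidec, all detected in every sample, Fabp4 the most abundant) was 18850 and 15710 CPM in vehicle, 15060 and 12550 CPM with SR-3420, 18230, 20520 and 18880 CPM with TC, and 18000, 16040 and 16180 CPM with ETO. It was 7448, 7371 and 7200 CPM with TC and SR-3420 and 9703, 6591 and 10610 CPM with ETO and SR-3420. Of the 7, 6 were called lower after SR-3420 in the presence of TC and 6 in the presence of ETO, beside 19.7% and 12.8% of all tested genes. The part of this shift in the Klb result was not tested. In bulk RNA, fewer adipocytes and less RNA of a gene per adipocyte cannot be told apart.

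Fgfr1, the receptor kinase, changed least between the groups of these 4 genes. Its levels were 742 and 544 CPM in vehicle, 803 and 573 CPM with SR-3420, 444, 490 and 392 CPM with TC, and 738, 615 and 439 CPM with ETO. They were 687, 592 and 460 CPM with TC and SR-3420 and 688, 516 and 436 CPM with ETO and SR-3420. No group stood apart from all others. The means ran from 442 ± 48.6 CPM in TC (SD, n = 3) through ETO+SR-3420 (547 ± 129, n = 3), TC+SR-3420 (580 ± 114, n = 3), ETO (597 ± 150, n = 3) and vehicle (643 ± 140, n = 2) to 688 ± 163 CPM in SR-3420 (n = 2), and each neighbouring pair overlapped. Fgfr1 was not called in any of the 9 comparisons of the model of group means, with adjusted p from 0.208 to 1. The TC samples lay below both vehicle samples, with a log2 difference of -0.54 (95% interval -1.097 to 0.015, adjusted p 0.22). This difference was -0.30 without vehicle replicate 2 and -0.75 without vehicle replicate 3. Within every group, replicate 3 had the lowest Fgfr1 level. Once edgeR also modelled a shift per replicate number, Fgfr1 was called lower with TC (-0.64, adjusted p 0.00164). It was then also called higher for TC+SR-3420 against TC (0.37, adjusted p 0.0108), and was not called in the remaining comparisons. The replicate numbers were not accepted as pairs, so these calls are given beside the main result.

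Per kilobase of counted length, Fgfr1 exceeded Klb in every sample. The ratio of the Klb to the Fgfr1 level was 0.259 and 0.339 in vehicle, 0.192 and 0.238 with SR-3420, 0.327, 0.270 and 0.381 with TC, and 0.217, 0.219 and 0.364 with ETO. It was 0.0854, 0.0948 and 0.119 with TC and SR-3420, lower than in all other samples. With ETO and SR-3420 the ratio was 0.141, 0.129 and 0.265, which overlapped with vehicle, with SR-3420 alone and with ETO alone.

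**Figure D2:**
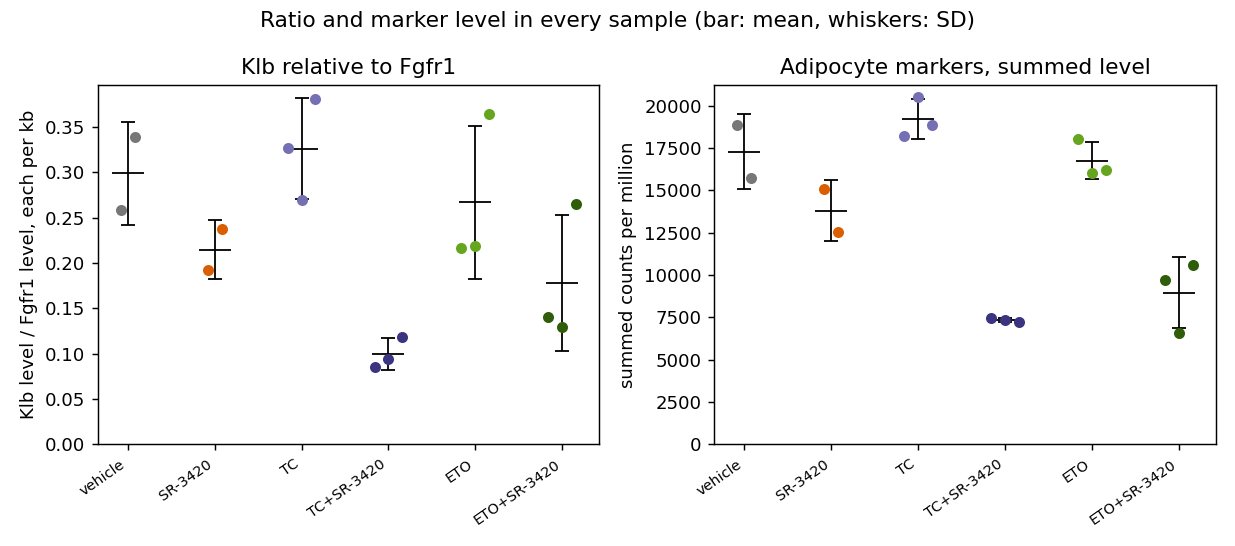
Left, the ratio of the Klb to the Fgfr1 level, each in CPM per kilobase; right, the summed level of the 7 adipocyte markers in CPM, by group, with a point per sample, a bar at the mean and whiskers of 1 SD. In both panels the 3 TC+SR-3420 samples are low, with ratios of 0.0854 to 0.119 and marker sums of 7200 to 7448 CPM.

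**Figure D3:**
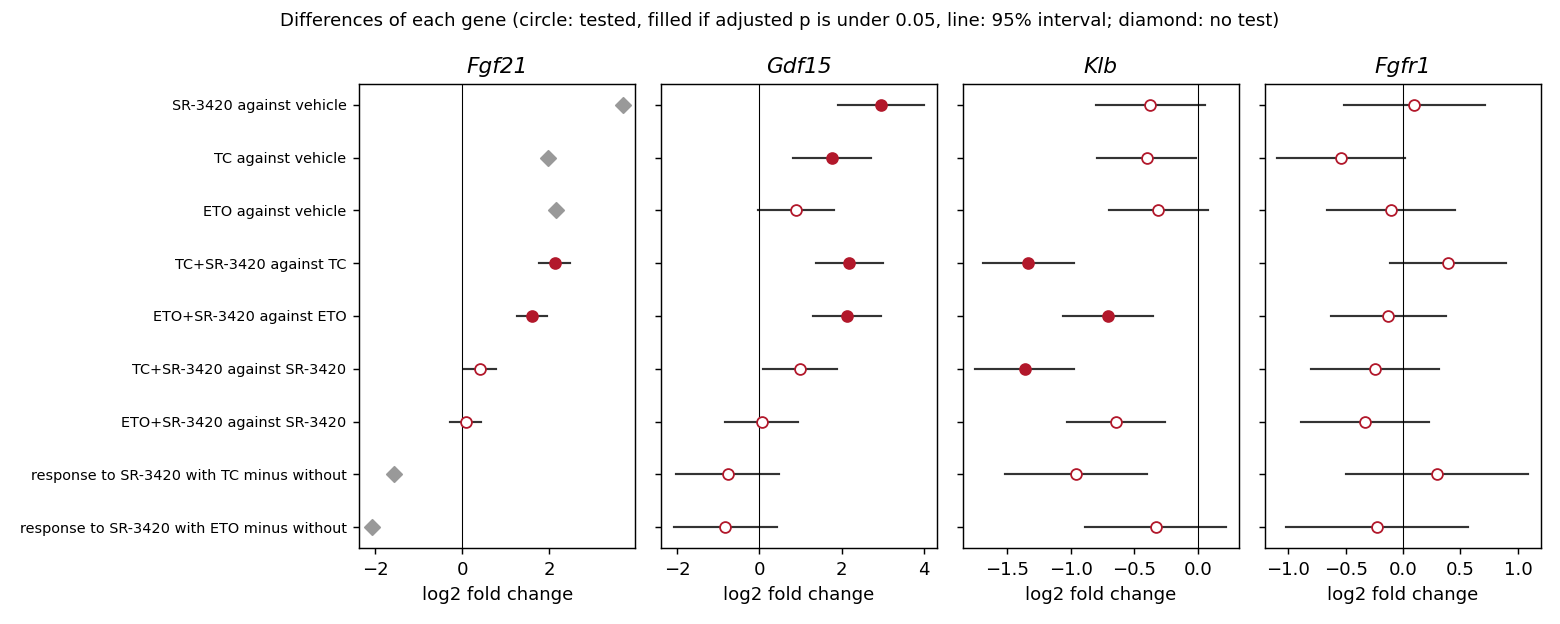
Fitted log2 fold changes (horizontal axes) of the 4 genes in the 9 comparisons (rows). Circles were tested and are filled where the adjusted p was under 0.05, lines are 95% intervals, and diamonds are the Fgf21 values that chose the gene, shown with no test. The hormones lie to the right of 0 and Klb to the left after SR-3420 in the presence of either inhibitor.

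Counts of called genes differed widely between the comparisons and set the scale for these results. For SR-3420 against vehicle, 1 of the 3 tested genes (Gdf15) was called higher and 0 lower, beside 4.75% and 2.79% of all tested genes. For TC against vehicle, 1 of 3 (Gdf15) was higher and 0 lower, beside 4.77% and 6.94%. For ETO against vehicle edgeR called 0 of 3, beside 0.0156% higher and 0.00782% lower, and DESeq2 called 0. At an unadjusted p under 0.05, 0 of 3 passed, beside 2.21% of all tested genes. For TC+SR-3420 against TC, 2 of 4 (Fgf21 and Gdf15) were higher and 1 (Klb) lower, beside 17.3% and 19.7%. For ETO+SR-3420 against ETO, the same 2 genes were higher and Klb lower, beside 12.5% and 12.8%. For TC+SR-3420 against SR-3420, edgeR called 0 of 4 higher and 1 (Klb) lower, beside 1.02% and 3.55%, and DESeq2 called 0 higher. At an unadjusted p under 0.05, 2 were higher and 1 lower, beside 19.5% of all tested genes in either direction. For ETO+SR-3420 against SR-3420, edgeR called 0 of 4, beside 0% higher and 0.00782% lower, and DESeq2 called 0. At an unadjusted p under 0.05, 1 passed (Klb, lower), beside 10% of all tested genes. For the difference in response with TC, edgeR called 0 of 3, beside 1.24% higher and 1.27% lower, and DESeq2 called 1. At an unadjusted p under 0.05, 1 passed (Klb), beside 16.7% of all tested genes. For the difference in response with ETO, edgeR called 0 of 3, beside 0% in both directions, and DESeq2 called 0. At an unadjusted p under 0.05, 0 passed, beside 2.4% of all tested genes.

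Few other FGF ligands were measurable in these cells. Of the 21 other ligands, 4 passed the filter on low counts, the paracrine factors Fgf1, Fgf2, Fgf7 and Fgf10. Fgf7 was called higher after SR-3420 in the presence of TC (log2 difference 1.16 ± 0.36, adjusted p 0.0216), with 1.02 ± 0.36 in the presence of ETO (adjusted p 0.0526). Fgf1, Fgf2 and Fgf10 were called in none of the 9 comparisons by edgeR. At an unadjusted p under 0.05, 1 of the 4 ligands passed for SR-3420 (beside 21.8% of all tested genes), 1 for TC (24.3%), 1 for TC+SR-3420 against TC (46.5%), 2 for ETO+SR-3420 against ETO (37.2%), 1 for TC+SR-3420 against SR-3420 (19.5%) and 1 for the response with TC (16.7%). None passed for ETO against vehicle, ETO+SR-3420 against SR-3420 or the response with ETO. DESeq2 called 1 of the 4 for TC against vehicle, 1 for TC+SR-3420 against TC and 1 for ETO+SR-3420 against ETO.

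Among the other receptors, Fgfr2, Fgfr3 and Fgfrl1 passed the filter, and Fgfr4 and the klotho gene Kl did not, with at most 9 and 3 counts in any sample. Fgfr2 fell with SR-3420 by 0.94 on the log2 scale (SE 0.16, adjusted p 0.0027) and with TC by 1.57 (SE 0.14, adjusted p 1.14e-05). After SR-3420 Fgfr2 fell by 0.84 in the presence of ETO (SE 0.13, adjusted p 0.000409), and its log2 difference in the presence of TC was -0.08 (adjusted p 0.648), where the level was already low. Fgfr2 was also called lower in TC+SR-3420 than in SR-3420 alone (-0.71 ± 0.14, adjusted p 0.0124). The difference between its responses with and without TC was 0.86 ± 0.20 (adjusted p 0.0412). Fgfr3 was called higher with TC (0.92 ± 0.24, adjusted p 0.022), and Fgfrl1, which lacks a kinase domain, was not called in any comparison. For the GDF15 receptor, Gfral had at most 2 counts in any sample, and Ret, the kinase it signals with, passed the filter and was not called in any comparison, with differences from -0.39 to 0.23 on the log2 scale, 0 comparisons at an unadjusted p under 0.05 and 0 calls by DESeq2.

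FGF receptors signal inward through a chain of adaptors and kinases. Of 18 tested genes of this chain, edgeR called 0 higher and 1 lower with SR-3420, 0 and 2 with TC, 2 and 0 for TC+SR-3420 against TC, and 1 and 1 for ETO+SR-3420 against ETO. The median log2 differences were -0.10, -0.17, 0.17 and 0.044, beside -0.004, 0.072, 0.019 and 0.009 over all tested genes. Of all tested genes, 4.75% were higher and 2.79% lower with SR-3420, 4.77% and 6.94% with TC, 17.3% and 19.7% on top of TC, and 12.5% and 12.8% on top of ETO, so the counts of this list on top of either inhibitor lay below these shares. The adaptor gene Gab1 was called lower with TC (-1.13 ± 0.19, adjusted p 0.00146) and the exchange factor gene Sos2 higher on top of TC (1.13 ± 0.38, adjusted p 0.0333). Map2k1, which encodes the kinase MEK1, was called higher on top of TC (0.66 ± 0.13, adjusted p 0.00113) and of ETO (0.47 ± 0.13, adjusted p 0.014). In the other comparisons edgeR called 0 of the 18, and DESeq2 called 0 in all 5. At an unadjusted p under 0.05, 0 passed for ETO against vehicle, beside 2.21% of all tested genes. Against SR-3420, 1 passed for TC+SR-3420 (beside 19.5%) and 1 for ETO+SR-3420 (beside 10%). For the difference in response, 2 passed with TC (beside 16.7%) and 0 with ETO (beside 2.4%).

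Most of the early genes and feedback inhibitors that FGF receptor and ERK signalling are known to switch on were called higher after SR-3420, with or without an inhibitor. Of 15 tested, 9 were higher and 0 lower with SR-3420 alone (median log2 difference 1.36), 11 higher and 1 lower on top of TC (1.098), and 11 higher and 0 lower on top of ETO (0.93). With TC alone 3 were higher and 0 lower (0.33). Over all tested genes the shares called higher were 4.75%, 17.3%, 12.5% and 4.77% in this order, and the medians lay between -0.004 and 0.072. The shares called lower were 2.79%, 19.7%, 12.8% and 6.94%. The growth factor response gene Egr1 rose by 2.51 ± 0.18 with SR-3420 (adjusted p 6.01e-06), and the ERK phosphatase gene Dusp5 rose by 2.58 ± 0.37 (adjusted p 0.00104). On top of TC, Egr1 rose by 2.74 ± 0.15 (adjusted p 2.06e-07) and the receptor signalling inhibitor Spry2 by 2.30 ± 0.18 (adjusted p 3.06e-06), whereas the related Spry1 fell by 0.46 (SE 0.16, adjusted p 0.0405). In ETO against vehicle edgeR called 0 of the 15 and DESeq2 called 1. At an unadjusted p under 0.05, 1 passed, beside 2.21% of all tested genes. For TC+SR-3420 against SR-3420, 1 of the same genes was called higher (Ier3, 1.11 ± 0.18, adjusted p 0.00446) and 0 lower. Of all tested genes 1.02% were higher and 3.55% lower there. In ETO+SR-3420 against SR-3420 edgeR called 0 and DESeq2 called 1. At an unadjusted p under 0.05, 2 passed, beside 10% of all tested genes. For the difference in response with TC, 0 were called higher and 1 lower (Spry4, -0.97 ± 0.16, adjusted p 0.00823). Of all tested genes 1.24% were higher and 1.27% lower there. For the difference in response with ETO edgeR called 0 and DESeq2 called 1. At an unadjusted p under 0.05, 2 passed, beside 2.4% of all tested genes. Many stimuli besides FGF switch these genes on, and no FGF21 protein was measured here.

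The integrated stress response, whose eIF2alpha kinases raise translation of ATF4, was followed in a list of 25 genes. Of these, 15 were higher and 0 lower with SR-3420 alone (median log2 difference 0.91, beside -0.004 over all genes), 18 and 0 on top of TC (0.79, beside 0.019), and 16 and 1 on top of ETO (0.84, beside 0.009). With TC alone 7 were higher and 1 lower (0.54, beside 0.072). The shares of all tested genes called higher and lower were 4.75% and 2.79% with SR-3420, 17.3% and 19.7% on top of TC, 12.5% and 12.8% on top of ETO, and 4.77% and 6.94% with TC. Atf4 itself rose by 0.65 ± 0.14 with SR-3420 (adjusted p 0.0143) and by 0.67 ± 0.13 with TC (adjusted p 0.0043). Ddit3, which encodes CHOP, rose by 2.19 ± 0.30 with SR-3420 (adjusted p 0.000791), and its difference with TC was 0.79 ± 0.27 (adjusted p 0.0765). Atf3, an early stress-induced repressor, rose by 3.64 ± 0.18 with SR-3420 (adjusted p 3.48e-07) and by 2.61 ± 0.17 with TC (adjusted p 1.1e-06). Slc7a11, the cystine transporter gene, rose by 3.25 ± 0.39 when SR-3420 was added to TC (adjusted p 3.95e-05). TC+SR-3420 exceeded SR-3420 alone in 6 genes of this list and lay below it in 0 (median 0.53, beside 0.017; 1.02% and 3.55% of all tested genes), with Atf4 higher by 0.77 ± 0.13 (adjusted p 0.00609) and Atf3 by 1.16 ± 0.15 (adjusted p 0.00175).

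The same list was counted for ETO alone. In ETO against vehicle edgeR called 0 of the 25 genes, with 8 at an unadjusted p under 0.05, all 8 of them higher, and 1 called by DESeq2. At that unadjusted threshold 2.21% of all tested genes passed, in either direction. The median log2 difference was 0.20, beside 0.008 over all genes. Trib3, a target of ATF4 and CHOP, had a difference of 0.81 ± 0.20 with ETO (adjusted p 0.809), and Atf4 one of 0.36 ± 0.13 (adjusted p 1). Trib3 was called higher with SR-3420 (0.92 ± 0.21, adjusted p 0.0185) and on top of TC (0.86 ± 0.17, adjusted p 0.00176). On top of ETO its difference was -0.02 ± 0.17 (adjusted p 0.955), where 16 genes of the list were called higher and 1 lower. Its difference in response with ETO was -0.94 ± 0.27 (adjusted p 0.988). In ETO+SR-3420 against SR-3420 edgeR called 0 of 25, with 4 at an unadjusted p under 0.05, beside 10% of all tested genes, and 0 by DESeq2. The difference in response was called for Atf3 with TC (-1.45 ± 0.22, adjusted p 0.00494) and not for Ddit3 (-0.21 ± 0.37, adjusted p 0.778).

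**Figure D4:**
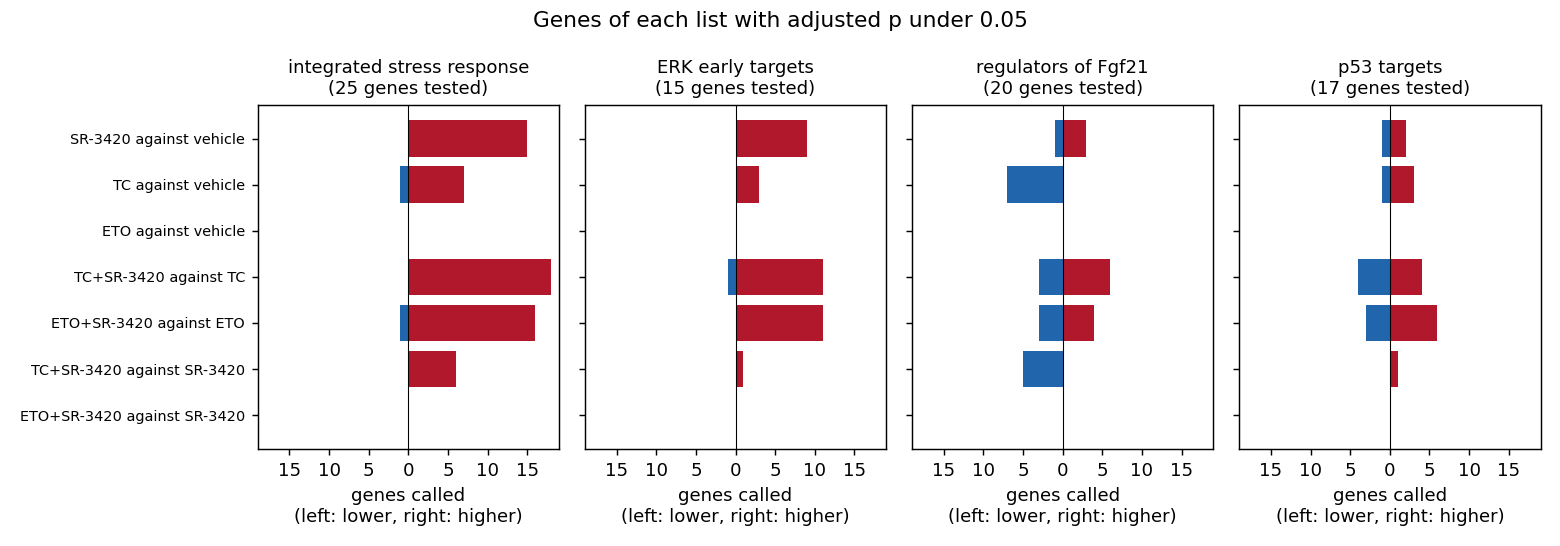
Number of genes called at an adjusted p under 0.05 (horizontal axes, lower to the left and higher to the right) in 4 gene lists for the 7 comparisons between groups (rows). The integrated stress response list and the ERK early target list have their longest bars to the right in the comparisons that add SR-3420, with 15, 18 and 16 and with 9, 11 and 11 genes higher, and no bar appears for ETO against vehicle.

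Nuclear receptors, co-activators and other factors are known as regulators of Fgf21. Of 20 tested, 3 were higher and 1 lower with SR-3420 (median log2 difference 0.089), 0 higher and 7 lower with TC (-0.42), 6 and 3 on top of TC (-0.017), 4 and 3 on top of ETO (0.04), and 0 and 5 for TC+SR-3420 against SR-3420 (-0.17). The shares of all tested genes in the same order were 4.75% higher and 2.79% lower with SR-3420, 4.77% and 6.94% with TC, 17.3% and 19.7% on top of TC, 12.5% and 12.8% on top of ETO, and 1.02% and 3.55% for TC+SR-3420 against SR-3420, with medians of -0.004, 0.072, 0.019, 0.009 and 0.017. Ppara, the fatty acid receptor gene, fell with TC by 0.83 on the log2 scale (SE 0.25, adjusted p 0.0427) and differed by -2.30 ± 0.25 between TC+SR-3420 and SR-3420 alone (adjusted p 0.000577). Its level with SR-3420 alone differed from vehicle by 0.44 ± 0.27 (adjusted p 0.38), and its response differed with TC by -1.47 ± 0.35 (adjusted p 0.0468). Pparg, the master regulator of fat cell genes, fell with SR-3420 by 0.82 (SE 0.21, adjusted p 0.0327) and with TC by 1.48 (SE 0.19, adjusted p 0.000182), and Ppargc1a, a co-activator, fell with TC by 1.04 (SE 0.26, adjusted p 0.0196). The mean Ppara level was 86.8 CPM in vehicle, 118 CPM with SR-3420 alone and 24.0 CPM in TC+SR-3420. The genes called higher with SR-3420 were the immediate early receptor gene Nr4a1 (2.04 ± 0.32, adjusted p 0.00193), Bhlhe40 (1.19 ± 0.18, adjusted p 0.00145) and Nfil3 (0.80 ± 0.18, adjusted p 0.0165). In ETO against vehicle edgeR called 0 of the 20 and DESeq2 called 0. At an unadjusted p under 0.05, 2 passed, beside 2.21% of all tested genes. For ETO+SR-3420 against SR-3420 edgeR called 0 and DESeq2 called 1. There 4 passed the unadjusted threshold, beside 10% of all tested genes.

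Gdf15 is also a known target of p53, so other p53 targets were listed. Of 17 tested genes, 2 were higher and 1 lower with SR-3420 (median log2 difference 0.30), 3 and 1 with TC (0.35), 4 and 4 on top of TC (0.028), 6 and 3 on top of ETO (0.35), and 1 and 0 for TC+SR-3420 against SR-3420 (0.19). All tested genes had 4.75% higher and 2.79% lower with SR-3420, 4.77% and 6.94% with TC, 17.3% and 19.7% on top of TC, 12.5% and 12.8% on top of ETO, and 1.02% and 3.55% for TC+SR-3420 against SR-3420, with medians of -0.004, 0.072, 0.019, 0.009 and 0.017, so the p53 counts on top of TC lay near these shares. Cdkn1a, the p21 cell cycle inhibitor gene, rose by 0.87 ± 0.17 with SR-3420 (adjusted p 0.00873) and Plk2 by 1.62 ± 0.21 (adjusted p 0.000633), whereas Sesn1 fell by 1.17 (SE 0.17, adjusted p 0.00104). In ETO against vehicle edgeR called 0 of the 17 and DESeq2 called 0. At an unadjusted p under 0.05, 1 passed, beside 2.21% of all tested genes. For ETO+SR-3420 against SR-3420 edgeR called 0 and DESeq2 called 0. There 3 passed the unadjusted threshold, beside 10% of all tested genes.

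Most of the other secreted factors of adipocytes were not called in most comparisons. Of 16 tested, 3 were higher and 1 lower with SR-3420 (median log2 difference 0.63), 1 and 0 with TC (0.27), 5 and 5 on top of TC (0.24), 3 and 3 on top of ETO (0.59), and 0 and 4 for TC+SR-3420 against SR-3420 (-0.17). Among all tested genes the shares were 4.75% higher and 2.79% lower with SR-3420, 4.77% and 6.94% with TC, 17.3% and 19.7% on top of TC, 12.5% and 12.8% on top of ETO, and 1.02% and 3.55% for TC+SR-3420 against SR-3420, with medians of -0.004, 0.072, 0.019, 0.009 and 0.017. Angptl4, an inhibitor of lipoprotein lipase, rose by 2.10 ± 0.14 with SR-3420 (adjusted p 3.82e-06) and by 1.50 ± 0.13 with TC (adjusted p 9.63e-06), so it shared these directions with Gdf15. Adipoq, which encodes adiponectin, fell by 1.68 on top of TC (SE 0.21, adjusted p 6.23e-05) and by 1.24 on top of ETO (SE 0.21, adjusted p 0.000922), and its difference of TC+SR-3420 from SR-3420 was -1.04 ± 0.23 (adjusted p 0.0202). Klb was called lower in the same 3 comparisons. In ETO against vehicle edgeR called 0 of the 16 and DESeq2 called 1. At an unadjusted p under 0.05, 2 passed, beside 2.21% of all tested genes. For ETO+SR-3420 against SR-3420 edgeR called 0 and DESeq2 called 2. There 8 passed the unadjusted threshold (2 higher and 6 lower), beside 10% of all tested genes.

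Of the proteases known to cut FGF21 or precursors of the TGF-beta family, Furin, Mmp14, Pcsk5 and Pcsk6 passed the filter, and Fap, the enzyme that inactivates FGF21 in blood, did not, with at most 13 counts in any sample. Pcsk6 was called lower with TC (-1.13 ± 0.24, adjusted p 0.00795), after SR-3420 on top of TC (-0.71 ± 0.23, adjusted p 0.0255) and on top of ETO (-1.05 ± 0.22, adjusted p 0.00416), and in TC+SR-3420 against SR-3420 (-1.11 ± 0.25, adjusted p 0.0224). Mmp14 was called higher on top of ETO (0.80 ± 0.23, adjusted p 0.0233), and Furin, a proprotein convertase, was not called in any comparison.

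The genes with the most similar pattern to each member were ranked by the Pearson correlation of log2 CPM over the 16 samples, as a description with no test, among the 10726 genes whose normalized counts averaged 50 or more. The points share the treatment groups, so any gene with a like order of group levels scores high. For Fgf21 the first 5 were Spry4 (r = 0.966), Angptl4 (0.948), Slc7a1 (0.940), Chac1 (0.937) and Pdk4 (0.933). For Gdf15 they were Slc3a2 (0.987), Plk3 (0.984), Acsbg1 (0.983), Soat2 (0.982) and Slc7a5 (0.978). Slc7a1, Slc3a2 and Slc7a5 encode parts of amino acid transporters, Chac1 a glutathione-degrading enzyme, and Pdk4 a kinase that shuts down pyruvate dehydrogenase. For Klb the first 5 were Pbx2 (0.975), 1600014C10Rik (0.958), Lpin1 (0.957), Aqp7 (0.955) and Mmd2 (0.955), of which Aqp7 encodes the glycerol channel of fat cells and Lpin1 a phosphatidate phosphatase. For Fgfr1 they were Cabin1 (0.970), Fbxw8 (0.966), Trrap (0.960), Ccdc85c (0.958) and Dip2a (0.953). Between the members the correlation was 0.909 for Fgf21 and Gdf15, -0.761 for Fgf21 and Klb, -0.809 for Gdf15 and Klb, and 0.042 for Fgf21 and Fgfr1.

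**Figure D5:**
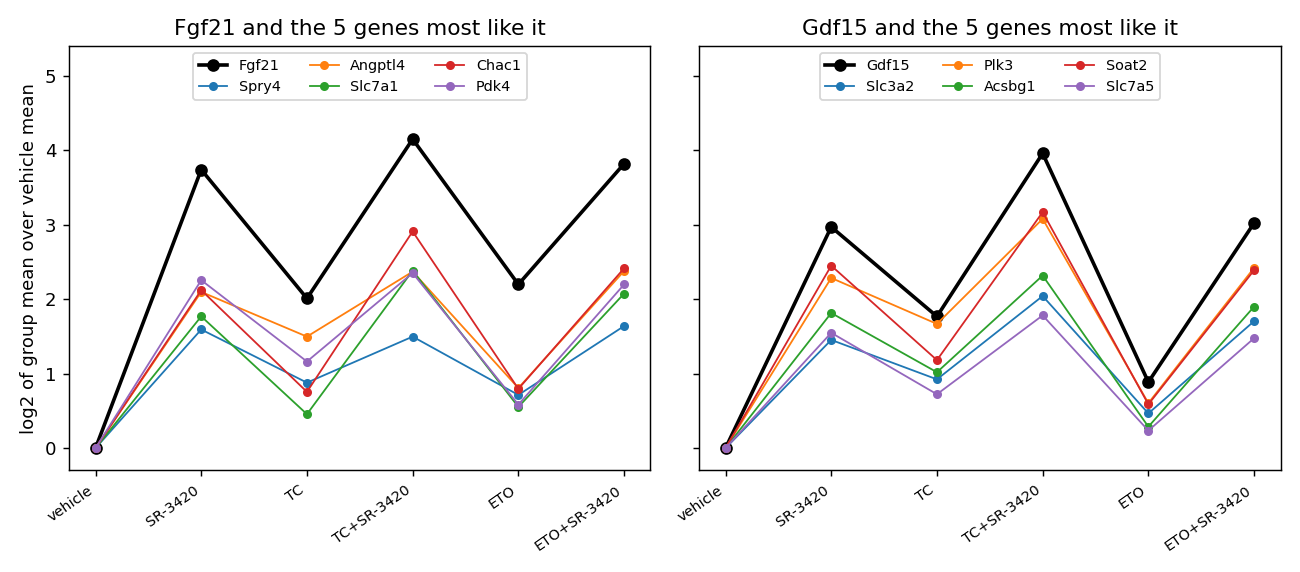
Group means of Fgf21 (left) and Gdf15 (right) and of the 5 genes most like each, as log2 of the group mean over the vehicle mean (vertical axis) in the 6 groups (horizontal axis); lines join the values of a gene and carry no order. The black line of each hormone lies above those of its 5 companions in each treated group, and Spry4 (r = 0.966) and Slc3a2 (r = 0.987) are the most similar.

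Of the cell type markers, those of adipocytes were the most abundant, and the brown marker Ucp1 was scarce in all 6 groups. The 9 brown adipocyte markers summed to between 106 and 273 CPM, most of it from Cox8b and Ppargc1a. The mean sum was 239 CPM in vehicle and 111 CPM in TC+SR-3420. Between these groups Cox8b went from 118 to 39.6 CPM and Ppargc1a from 51.6 to 24.2 CPM. Ucp1, with at most 57 counts in any sample, averaged 1.22 CPM in vehicle and 3.21 CPM in TC+SR-3420. Of the 7 brown markers tested, 1 was called higher and 3 lower on top of TC, beside 17.3% and 19.7% of all tested genes. Dio2 and Zic1 had at most 2 and 5 counts in any sample. Preadipocyte and fibroblast markers (6 genes) summed to between 75.7 and 202 CPM, with group means of 90.3 CPM in vehicle and 168 CPM in TC+SR-3420. Hepatocyte markers (5 genes), included because the liver is the main source of circulating FGF21, summed to at most 15.2 CPM, with Alb at no more than 8 counts in any sample and Ttr at 0. Skeletal muscle markers (5 genes) summed to at most 12.9 CPM, macrophage markers (5 genes) to at most 18.4 CPM, with Cd68 the most abundant, and endothelial markers (4 genes) to at most 3.54 CPM.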

How the data were processed

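Total RNA of 16 cultures was sequenced, and the labels gave each sample its group and replicate number. The authors mapped reads to mm9 with STAR 2.4.2a, used HOMER to keep at most 1 read per position and length, and deposited whole-number counts per gene made with iRNA-seq. That limit can hold down the counts of short abundant genes, and Gdf15 reached 11970 counts over 1084 bases (11.0 per base). From the counts, edgeR 4.0.16 (R 4.3.3) fitted 1 quasi-likelihood model with a mean per group to all 16 samples, with TMM factors and filterByExpr, and adjusted p-values by Benjamini-Hochberg over 12786 genes. SE is the log2 difference over the root of F, and 95% intervals use the t distribution with the test's degrees of freedom (13.34). The study's methods speak of independent experiments, and the samples within a group differed by more than sampling noise (chi-square per degree of freedom at least 4.53). Alternatives were RLE factors, no filter, at least 10 counts in every sample, DESeq2 1.42.0, the replicate number as a block, only the compared groups, and leaving out each sample. Code was tested on simulated data. Figures used matplotlib 3.10.9 and Python 3.11.15.

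Named genes were the 4 members, at most 3 called genes per list, direction and comparison with the largest log2 change and normalized counts averaging 50 or more, every gene passing the filter from the FGF ligand, receptor, GDF15 receptor and protease lists, Atf4, Ddit3, Atf3, Trib3, Ppara, Pparg and Ppargc1a, and the 5 genes most correlated with each member. Genes at very low counts and the marker genes are named for their counts only. Members and lists were chosen with earlier results of these data known.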

Additional observations from a re-analysis of the deposited data

How the results depend on the processing

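With RLE factors and with no filter, every tested value of Gdf15, Klb and Fgfr1, and the 4 tested Fgf21 values, kept direction and side of the threshold. The other named genes were less stable: of their 153 called values, 46 were not called with the compared groups only, 12 with no filter (among them Pparg with SR-3420, Spry1 on top of TC, and the responses of Fgfr2 and Ppara with TC), 2 with RLE factors and 1 when 10 counts were required in every sample. Other values of these genes gained a call, 18 with the block, 5 by DESeq2 and 1 with the compared groups only. Requiring 10 counts in every sample left no Fgf21 value. Among the values of Fgf21, Gdf15, Klb and Fgfr1, DESeq2 changed 1 call, Klb in the response with TC (-0.92). Fitting only the compared groups uses fewer samples: Gdf15 with SR-3420 (2.95) and Klb for ETO+SR-3420 against ETO (-0.72) were then not called, and Klb in the response with TC was (-0.94). The replicate numbers were not accepted as pairs, since 27 of 35 pairs with the same number, not all, correlated above 0.1, and 10 of 16 samples correlated best with their own number. Of 71 pairs with different numbers, 25 correlated above 0.1. The mean correlation was 0.387 for the same number and -0.192 for different numbers. Differences that go with the number thus stay in the spread of the model of group means. The SE of Gdf15 with SR-3420 was 0.485 in that model and 0.219 with the block. Vehicle and SR-3420 also lacked different numbers. With the number as a block, Klb (-0.45) and Fgfr1 (-0.64) with TC, Fgfr1 for TC+SR-3420 against TC (0.37), Gdf15 for TC+SR-3420 against SR-3420 (0.89), Klb for ETO+SR-3420 against SR-3420 (-0.59) and Klb in the response with TC (-0.84) were called, and Gdf15 for ETO+SR-3420 against SR-3420 reversed without a call (-0.04). The cause was not tested.

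Leaving out 1 sample, Gdf15 with TC ranged from 1.31 to 2.43. Uncalled values changed sign for Fgfr1 with SR-3420 (-0.16 to 0.34), with ETO (-0.31 to 0.13), for ETO+SR-3420 against ETO (-0.33 to 0.05), for TC+SR-3420 against SR-3420 (-0.47 to 0.02) and in the response with ETO (-0.47 to 0.04), and for Gdf15 in ETO+SR-3420 against SR-3420 (-0.29 to 0.50). A lone sample left in a group was assumed to vary like the other groups.

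Counts of called genes moved more than these values. SR-3420 against vehicle had 964 called genes, 1584 by DESeq2, 2438 with the block and 46 with the compared groups only. TC against vehicle had 1497 and 3072 with the block, and ETO against vehicle had 3, 17 by DESeq2, 6 with the block and 0 with the compared groups only. TC+SR-3420 against TC had 4722 and 7185 with the block, and ETO+SR-3420 against ETO had 3234, 5776 with the block and 1205 with the compared groups only. Against SR-3420, TC+SR-3420 had 585, 1217 by DESeq2, 3008 with the block and 78 with the compared groups only, and ETO+SR-3420 had 1, 89 by DESeq2, 1838 with the block and 0 with no filter or with the compared groups only. The response with TC had 321, 812 by DESeq2, 1669 with the block and 163 with no filter, and that with ETO had 0, 7 by DESeq2 and 3 with the block. Leaving out 1 sample gave 306 to 504 called genes for SR-3420 against vehicle, 702 to 1089 for TC against vehicle, 0 to 3 for ETO against vehicle, 3506 to 4056 for TC+SR-3420 against TC and 1989 to 3198 for ETO+SR-3420 against ETO. It gave 54 to 401 for TC+SR-3420 and 0 to 12 for ETO+SR-3420 against SR-3420, and 53 to 179 for the response with TC. Of the called genes, 22.4% were higher for TC+SR-3420 against SR-3420 and 38% by DESeq2, and 66.7% and 41.2% for ETO against vehicle. Of 336 counts over gene lists, 264 stayed within 1.5 times, 54 were higher and 18 lower. With 6 to 12 vehicle counts of Fgf21, its folds over vehicle are imprecise.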
